A study of Homo sapiens with 24 samples.

Results

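The transcripts of 10 genes of the BCL2 family were followed in renal cells in which KDM5C, YY1 or both were knocked down. The genes were taken by symbol and comprise 4 pro-survival members (BCL2, BCL2L1, MCL1 and BCL2A1), 1 effector (BAK1) and 5 BH3-only members (BID, BAD, BCL2L11, BIK and BMF). All 10 were found among the 60675 genes of the count tables.

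Proteins of this family control whether the outer membrane of mitochondria stays intact when a cell is under stress. Effectors such as BAK1 open pores in that membrane, pro-survival members bind and restrain them, and BH3-only members use a short helix, the BH3 motif, to occupy pro-survival members or to switch on effectors. MCL1 and BCL-XL, the main product of BCL2L1, are well-known survival factors of epithelial and carcinoma cells. KDM5C is a demethylase of histone H3, and YY1 is a zinc finger transcription factor that can activate or repress its targets.

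Total RNA was sequenced from ACHN, a human renal cancer line whose label gives clear cell renal cell carcinoma as its type, and from HK2, a human kidney tubule line. Each line had 4 groups with 3 replicates, 24 libraries in all. They carried a control hairpin (shNC, named shCtrl in the methods), a hairpin against KDM5C (shKDM5C), a hairpin against YY1 (shYY1), or hairpins against both (Dsh, the double knockdown). Every group was a stable line made by lentiviral infection and puromycin selection, and the double knockdown was made from YY1-depleted cells by a second infection with a GFP-marked KDM5C hairpin, then chosen by puromycin resistance and green fluorescence. The labels do not tell which hairpin against a gene was used or whether replicates were separate cultures, so p-values measure the spread between these libraries, which may be technical.

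Between 15926561 and 24272298 read pairs per library were assigned to genes. The HK2 shKDM5C replicate 1 stood apart from all other libraries. Its median absolute log2 difference from the other replicates of its group was 0.495 and 0.499, against 0.0684 to 0.112 in the other 22 pairs of replicates, and results of fits that hold it are also given without it. The targeted transcripts were lower wherever their hairpin was present. KDM5C fell by 0.73 on the log2 scale in ACHN shKDM5C cells and by 0.80 in ACHN Dsh cells, and by 1.74 (1.51 without replicate 1) and 1.49 in the same HK2 groups. YY1 fell by 0.88 in ACHN shYY1 cells and by 0.51 in ACHN Dsh cells, and by 1.70 and 1.49 in the HK2 groups. In shYY1 cells KDM5C itself was higher, by 0.34 in ACHN and 0.35 in HK2. Of 7 renal epithelial markers, 6 were detected in every library of both lines, with KRT8 between 642 and 1977 CPM (read counts scaled to library size with edgeR's TMM factors within a line). The remaining one, the cadherin CDH6, stayed at or below 0.669 CPM in ACHN and reached 440.3 to 1354 CPM in HK2. Markers of leukocytes, endothelium and muscle stayed at or below 2.63 CPM in every library. PAX2, the lowest of the 6 renal markers detected throughout, had 1.26 to 2.24 CPM in HK2 Dsh libraries, within that range. It varied widely, up to 75.9 to 87.8 CPM in ACHN shYY1 libraries.

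**Figure D1:**
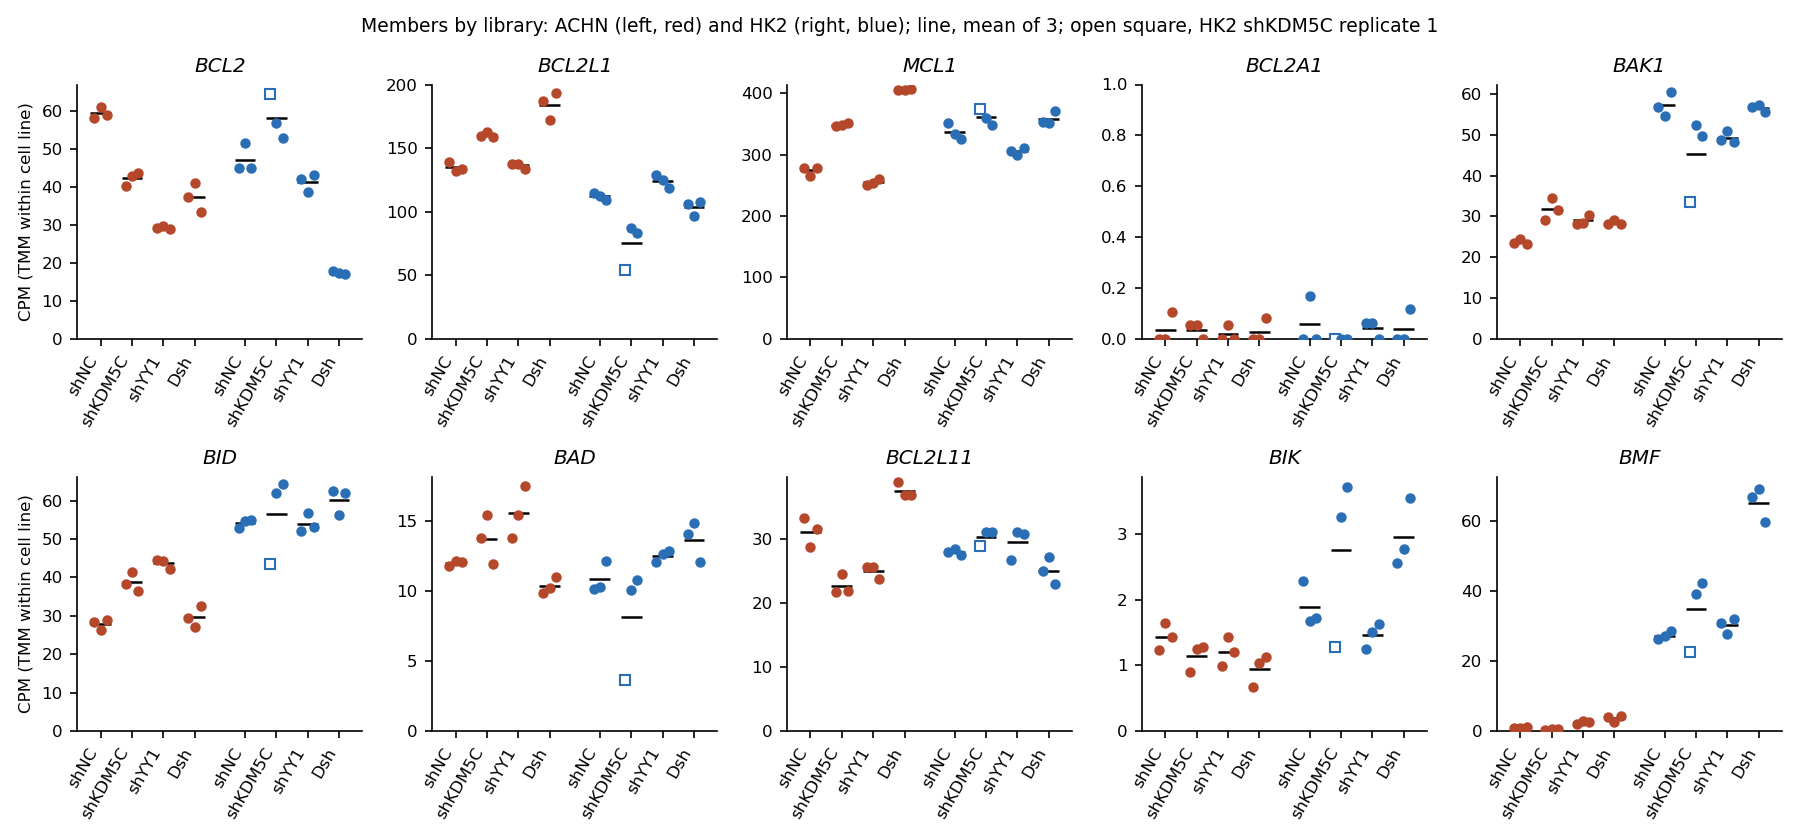
CPM (vertical axes, linear from 0) of the 10 members in each of 24 libraries, with the 4 ACHN groups at the left and the 4 HK2 groups at the right of each panel; points are libraries, lines are means of 3, and the open square is the HK2 shKDM5C replicate 1. BCL2 lies lowest in the HK2 Dsh libraries, BMF reaches 59.7 to 69.3 CPM in HK2 Dsh libraries, and BCL2A1 stays at or below 0.168 CPM.

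In control cells, MCL1 and BCL2L1 were the most abundant members per length of transcript. MCL1 had 63.5 ± 1.67 CPM per kb of exon in ACHN shNC cells and 76.2 ± 3.01 CPM per kb in HK2 shNC cells (SD, n = 3). BCL2L1 followed with 41.3 ± 1.17 and 33.6 ± 0.801 CPM per kb, and no shNC library had another member above it. The place of BCL2L1 below MCL1 in ACHN depends on its length: 1424 exon bases of BCL2L1, 43.0% of the total, lie under the antisense gene ABALON, and per kb of exon outside that overlap it had 72.3 ± 2.05 CPM in ACHN and 58.8 ± 1.41 CPM in HK2. Counting ignored strand and left out read pairs that touch both genes, so neither length is exact.

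Below these, the ACHN order was BAK1 (10.8 ± 0.290 CPM per kb), BAD (7.12 ± 0.133), BID (6.33 ± 0.308), BCL2 (5.11 ± 0.140), BCL2L11 (4.72 ± 0.339), BIK (1.53 ± 0.219) and BMF (0.182 ± 0.0228). In this order BCL2 and BCL2L11 overlapped between libraries. HK2 shNC cells ranked BAK1 (25.7 ± 1.29 CPM per kb), BID (12.1 ± 0.252), BAD (6.31 ± 0.633), BMF (4.96 ± 0.204), BCL2L11 (4.16 ± 0.0726), BCL2 (3.98 ± 0.327) and BIK (1.97 ± 0.350), where BCL2L11 and BCL2 again overlapped. In bulk RNA, a higher level in every cell and a larger share of expressing cells cannot be told apart.

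Of the 9 members that passed the filter on low counts, 7 differed between the control cells of the lines, 3 higher and 4 lower in ACHN (edgeR's quasi-likelihood test, adjusted p under 0.05). Of 16988 genes, 76.6% passed the same test, 38.6% higher and 38.0% lower. The difference was widest for BMF, which was 26.9-fold lower in ACHN (-4.75 on the log2 scale, standard error 0.147, adjusted p = 3.08e-21, edgeR). BAK1 was lower in ACHN by -1.23 (standard error 0.0648, adjusted p = 5.87e-16, edgeR) and BID by -0.92 (standard error 0.0630, adjusted p = 2.22e-13, edgeR). MCL1 was also lower, at -0.25, while BCL2 (0.37), BCL2L1 (0.31) and BCL2L11 (0.19) were higher. The BCL2L11 call was lost without ACHN shNC replicate 1 or HK2 shNC replicate 3 and under scaling to total counts, with adjusted p-values up to 0.101 (edgeR). BAD (0.18) and BIK (-0.36) did not pass. Each type is represented by 1 line, so the cancer origin and all else that separates ACHN from HK2 cannot be told apart.

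Next, each knockdown was compared with shNC of the same line. In ACHN cells 7 of the 9 members passed with shKDM5C (4 higher, 3 lower), where 56.6% of 16184 genes tested passed (28.9% higher, 27.7% lower). With shYY1, 7 passed (4 higher, 3 lower) beside 48.7% of 16370 genes (24.2% higher, 24.5% lower), and in Dsh cells 6 passed (5 higher, 1 lower) beside 62.6% of 16454 genes (30.7% higher, 32.0% lower). HK2 cells had 0 calls among the members with shKDM5C, where 1.32% of 16161 genes passed. There, 1 member (BCL2L1) had an unadjusted p under 0.05 in edgeR and DESeq2 called 0. Without replicate 1 of that group, 5 members passed beside 22.3% of 16642 genes. In HK2 shYY1 cells 3 members passed (1 higher, 2 lower) beside 29.1% of 16071 genes (14.3% higher, 14.7% lower), and in HK2 Dsh cells 4 passed (3 higher, 1 lower) beside 49.8% of 16217 genes (25.5% higher, 24.3% lower). The background of calls was high, and these counts by themselves do not set the members apart from other genes. The median log2 fold change of the 9 members was 0.26 in ACHN Dsh and 0.10 in HK2 Dsh cells, beside -0.0057 and -0.0026 over all genes tested. It was 0.19 in ACHN and 0.11 in HK2 with shKDM5C (all replicates), and -0.0047 and -0.0029 with shYY1. This median joins pro-survival and death-promoting members and has no single direction. BCL2, lower, and BMF, higher, were the members that passed with the same sign in both double knockdowns. The 3 comparisons of a line share their shNC libraries, so their values are set side by side and not counted as separate support.

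**Figure D2:**
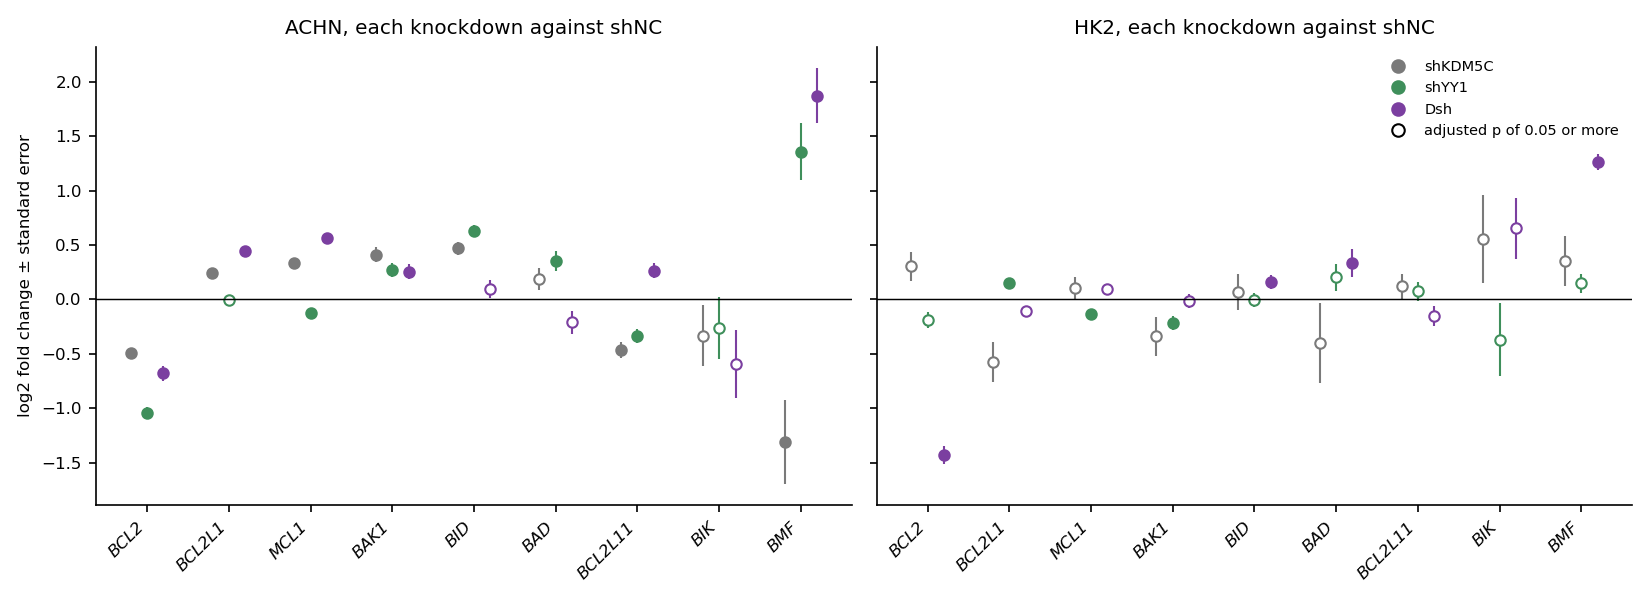
Log2 fold change against shNC (vertical axis, with the standard error as bars) of the 9 members tested, in ACHN (left) and HK2 (right), for shKDM5C (grey), shYY1 (green) and Dsh (purple); open circles have an adjusted p of 0.05 or more. In ACHN all 3 values of BCL2 are negative and BMF goes from -1.31 with shKDM5C to 1.88 in Dsh cells, whereas in HK2 the values furthest from 0 are those of BCL2 (-1.43) and BMF (1.26) in Dsh cells.

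Among the pro-survival members, BCL2 (ENSG00000171791; chr18:63123346-63320128, minus strand, GRCh38) encodes the founding protein of the family, which sits on the outer mitochondrial membrane and the endoplasmic reticulum. ACHN libraries had 58.2, 61.2 and 59.0 CPM in shNC, 40.4, 43.0 and 43.7 CPM in shKDM5C, 29.2, 29.7 and 29.1 CPM in shYY1 and 37.4, 41.0 and 33.5 CPM in Dsh cells. Every knockdown library lay below every shNC library, and the shYY1 libraries lay below all others. The log2 fold changes were -0.50 (standard error 0.0506, adjusted p = 5.86e-09, edgeR) with shKDM5C, -1.04 (standard error 0.0530, adjusted p = 8.49e-18, edgeR) with shYY1 and -0.68 (standard error 0.0696, adjusted p = 8.89e-08, edgeR) in Dsh cells. The double knockdown thus had more BCL2 than shYY1 alone (0.34, adjusted p = 7.58e-05, edgeR). Its value below shKDM5C (-0.19, adjusted p = 0.0130, edgeR) lost the call without ACHN Dsh replicate 3 (adjusted p = 0.116) or ACHN shKDM5C replicate 3 and with scaling to total counts.

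HK2 cells showed another order of BCL2 levels. They had 45.1, 51.7 and 44.98 CPM in shNC, 64.7, 56.8 and 53.0 CPM in shKDM5C, 42.1, 38.7 and 43.3 CPM in shYY1, and 17.9, 17.4 and 16.9 CPM in Dsh cells. No Dsh library came near the other groups, and the 4 groups did not overlap. BCL2 fell by 1.43 on the log2 scale in Dsh cells (standard error 0.0858, adjusted p = 6.63e-15, edgeR), to 0.371 of the control level. The single knockdowns gave 0.30 for shKDM5C (standard error 0.136, adjusted p = 0.341, edgeR) and -0.19 for shYY1 (standard error 0.0768, adjusted p = 0.0684, edgeR). Without replicate 1, shKDM5C gave 0.22 (adjusted p = 0.0420, edgeR), a higher level and not a lower one.

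BCL2L1 (ENSG00000171552; chr20:31664452-31723989, minus strand) encodes BCL-XL and, by another splice site, a short form that promotes death. Counts per gene do not separate these forms. In ACHN cells it had 139.5, 132 and 134 CPM in shNC, 160.0, 163 and 159 CPM in shKDM5C, 138, 138 and 134 CPM in shYY1 and 187, 172 and 193 CPM in Dsh libraries. All Dsh and shKDM5C libraries lay above all shNC libraries, and shYY1 overlapped with shNC. The log2 fold change was 0.24 (standard error 0.0352, adjusted p = 1.98e-06, edgeR) with shKDM5C and 0.45 (standard error 0.0491, adjusted p = 2.31e-07, edgeR) in Dsh cells.

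In HK2 cells BCL2L1 had 115, 113 and 109.6 CPM in shNC, 54.4, 87.1 and 83.7 CPM in shKDM5C, 129, 125 and 119 CPM in shYY1 and 106, 96.7 and 108 CPM in Dsh libraries. The shKDM5C libraries were the lowest of the line, with replicate 1 far below the others. Its log2 fold change of -0.58 (standard error 0.183) did not pass with all 3 replicates (adjusted p = 0.221, edgeR) and was -0.39 (standard error 0.0542, adjusted p = 5.31e-06, edgeR) without replicate 1. The call in shYY1 cells, 0.15 (adjusted p = 0.0433, edgeR), was lost without any shNC replicate or without shYY1 replicate 1 or 2 (adjusted p up to 0.167), and with all 4 groups in the fit, a minimum of 10 counts, no filter or total counts (up to 0.675). Dsh cells gave -0.11 (adjusted p = 0.0863, edgeR).

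MCL1 (ENSG00000143384; chr1:150574551-150579738, minus strand) encodes a pro-survival protein with a very short half-life. The amount of that protein was not measured here, and the values are of RNA. ACHN libraries had 279, 266 and 279 CPM in shNC, 346, 348 and 351 CPM in shKDM5C, 250.4, 253 and 260.3 CPM in shYY1, and 406, 405 and 406 CPM in Dsh cells. None of the 4 groups overlapped. MCL1 rose by 0.34 on the log2 scale (standard error 0.0307, adjusted p = 7.32e-10, edgeR) with shKDM5C and by 0.56 (standard error 0.0420, adjusted p = 1.17e-09, edgeR) in Dsh cells, and was lower with shYY1, at -0.13 (standard error 0.0302, adjusted p = 0.000621, edgeR).

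HK2 libraries had 351, 333 and 325 CPM of MCL1 in shNC, 374, 359 and 348 CPM in shKDM5C, 306, 299 and 311 CPM in shYY1 and 352, 351 and 371 CPM in Dsh cells. The shYY1 libraries were the lowest 3, at -0.14 on the log2 scale (adjusted p = 0.0318, edgeR). That call was lost without shNC replicate 1 or 2 or shYY1 replicate 2 (adjusted p up to 0.172) and with all 4 groups in the fit. In Dsh cells the value was 0.10 (adjusted p = 0.0540, edgeR), which passed with DESeq2, and 0.11 with shKDM5C (adjusted p = 0.600, edgeR), or 0.07 without replicate 1.

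The last pro-survival member, BCL2A1 (ENSG00000140379; chr15:79960889-79971446, minus strand), encodes BFL-1 and is known as a gene of blood cells and an NF-kB target. It held 14 counts over the 24 libraries, no more than 3 in any, and was at 0 in 15 libraries. A count of 0 allows up to 3 counts, or 0.124 to 0.188 CPM at these depths, which covers counting error only. It failed the filter in every comparison, and a change in it was not detectable at this depth.

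BAK1 (ENSG00000030110; chr6:33572547-33580293, minus strand) encodes the pore-forming effector that resides on mitochondria. ACHN cells had 23.5, 24.4 and 23.2 CPM in shNC, 29.0, 34.5 and 31.6 CPM in shKDM5C, 28.1, 28.5 and 30.4 CPM in shYY1 and 28.0, 29.0 and 28.1 CPM in Dsh libraries. All 9 knockdown libraries lay above the 3 shNC libraries, and the knockdown groups next to each other in level overlapped. The log2 fold changes were 0.41 (standard error 0.0693, adjusted p = 1.59e-05, edgeR) with shKDM5C, 0.27 (standard error 0.0624, adjusted p = 0.000507, edgeR) with shYY1 and 0.26 (standard error 0.0717, adjusted p = 0.00447, edgeR) in Dsh cells. Against shKDM5C the double knockdown had -0.16, a call (adjusted p = 0.0434, edgeR) lost without ACHN Dsh replicate 1 or 3 or shKDM5C replicate 2 or 3 (adjusted p up to 0.247) and with DESeq2 or total counts (up to 0.205).

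In HK2 cells BAK1 started at 56.7, 54.7 and 60.5 CPM in shNC libraries and had 33.5, 52.4 and 49.7 CPM in shKDM5C, 48.6, 50.9 and 48.2 CPM in shYY1 and 56.7, 57.2 and 55.5 CPM in Dsh libraries. Dsh and shNC overlapped, and the lowest value was that of shKDM5C replicate 1. The shYY1 value was -0.22 (standard error 0.0662, adjusted p = 0.0157, edgeR), and this call was lost without shNC replicate 3 or shYY1 replicate 3 (adjusted p up to 0.103) and with all 4 groups in the fit (0.458). The values for shKDM5C (-0.34, or -0.17 without replicate 1) and Dsh (-0.01) did not pass.

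Turning to the BH3-only members, BID (ENSG00000015475; chr22:17734138-17774770, minus strand) links death receptors to mitochondria, since caspase-8 cleaves it into an active fragment. In ACHN cells it was higher in each single knockdown but not in both together. Libraries had 28.3, 26.2 and 28.9 CPM in shNC, 38.2, 41.5 and 36.4 CPM in shKDM5C, 44.4, 44.2 and 42.2 CPM in shYY1 and 29.5, 27.0 and 32.6 CPM in Dsh cells. Dsh and shNC overlapped, and all 6 single-knockdown libraries lay above both. The log2 fold changes were 0.47 (standard error 0.0641, adjusted p = 7.66e-07, edgeR) with shKDM5C and 0.63 (standard error 0.0574, adjusted p = 3.14e-11, edgeR) with shYY1, and 0.10 (standard error 0.0794, adjusted p = 0.311, edgeR) in Dsh cells. The double knockdown was lower than shKDM5C by -0.38 (adjusted p = 4.75e-05, edgeR) and lower than shYY1 by -0.55 (adjusted p = 1.49e-07, edgeR).

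HK2 libraries had 52.8, 54.7 and 54.8 CPM of BID in shNC, 43.4, 61.9 and 64.3 CPM in shKDM5C, 52.2, 56.8 and 53.0 CPM in shYY1 and 62.5, 56.3 and 61.8 CPM in Dsh cells. The Dsh libraries lay above shNC, at 0.16 (adjusted p = 0.0368, edgeR), but leaving out any shNC library or Dsh replicate 1 or 3 ended that call (adjusted p up to 0.134), as did DESeq2, all 4 groups in the fit, no filter and total counts (up to 0.452). For shKDM5C the value was 0.07 (adjusted p = 0.846, edgeR), or 0.22 without replicate 1 (adjusted p = 0.0160, edgeR).

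BAD (ENSG00000002330; chr11:64269830-64284704, minus strand), whose protein is held inactive by survival kinases and 14-3-3 proteins, was counted at 51 to 319 read pairs per library. It shares 404 exon bases, 23.7% of its length, with GPR137 on the opposite strand. ACHN cells had 11.8, 12.2 and 12.1 CPM in shNC, 13.8, 15.5 and 11.95 CPM in shKDM5C, 13.8, 15.4 and 17.5 CPM in shYY1 and 9.89, 10.2 and 11.01 CPM in Dsh libraries. The shYY1 libraries lay above and the Dsh libraries below shNC. Of these, shYY1 passed at 0.35 (standard error 0.0923, adjusted p = 0.00176, edgeR), while Dsh gave -0.21 (standard error 0.103, adjusted p = 0.0808, edgeR) and shKDM5C 0.19 (standard error 0.0988, adjusted p = 0.111, edgeR). The latter passed without shKDM5C replicate 3, at 0.28 (adjusted p = 0.0231, edgeR). Against the single knockdowns, Dsh was lower by -0.40 (shKDM5C, adjusted p = 0.00188, edgeR) and -0.58 (shYY1, adjusted p = 2.63e-05, edgeR).

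In HK2 cells BAD had 10.2, 10.3 and 12.1 CPM in shNC, 3.64, 10.1 and 10.8 CPM in shKDM5C, 12.1, 12.7 and 12.9 CPM in shYY1, and 14.1, 14.9 and 12.1 CPM in Dsh libraries. The 3.64 CPM of shKDM5C replicate 1 was the lowest BAD level of the series. The Dsh call of 0.34 (standard error 0.130, adjusted p = 0.0314, edgeR) was lost without Dsh replicate 1 or 2 or shNC replicate 1 or 2 (adjusted p up to 0.135) and with DESeq2, all 4 groups in the fit or total counts (up to 0.446). With shKDM5C the value was -0.40 (adjusted p = 0.586, edgeR), and -0.06 without replicate 1.

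BCL2L11 (ENSG00000153094; chr2:111119378-111168447, plus strand) encodes BIM, which binds every pro-survival protein of the family and can activate effectors directly. In ACHN cells it was lower in each single knockdown and higher in both together. The libraries had 33.2, 28.7 and 31.4 CPM in shNC, 21.7, 24.4 and 21.8 CPM in shKDM5C, 25.6, 25.6 and 23.8 CPM in shYY1 and 38.8, 36.9 and 36.8 CPM in Dsh cells. The Dsh libraries were above and the single-knockdown libraries below all shNC libraries. The log2 values of BCL2L11 against shNC were -0.46 (standard error 0.0711, adjusted p = 4.16e-06, edgeR) with shKDM5C, -0.34 (standard error 0.0643, adjusted p = 4.57e-05, edgeR) with shYY1 and 0.27 (standard error 0.0703, adjusted p = 0.00289, edgeR) in Dsh cells. The double knockdown exceeded shKDM5C by 0.73 (adjusted p = 1.50e-09, edgeR) and shYY1 by 0.59 (adjusted p = 4.77e-08, edgeR).

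HK2 levels of BCL2L11 stayed between 23.0 and 31.1 CPM in all 12 libraries. The shNC libraries had 27.9, 28.4 and 27.5 CPM and the Dsh libraries 24.99, 27.1 and 23.0 CPM, which do not overlap. None of its 3 comparisons with shNC passed, with values of 0.12 for shKDM5C (0.15 without replicate 1), 0.08 for shYY1 and -0.15 for Dsh (adjusted p = 0.161, edgeR).

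BIK (ENSG00000100290; chr22:43110748-43129712, plus strand) encodes a BH3-only protein of the endoplasmic reticulum that is lost in many renal cell carcinomas. It was counted at 13 to 68 read pairs per library. ACHN libraries ranged from 0.663 to 1.64 CPM and neighbouring groups overlapped, with log2 fold changes of -0.33, -0.27 and -0.60 (shKDM5C, shYY1 and Dsh), none of which passed. In HK2 cells it had 2.28, 1.68 and 1.72 CPM in shNC, 1.29, 3.27 and 3.73 CPM in shKDM5C, 1.25, 1.51 and 1.63 CPM in shYY1, and 2.56, 2.77 and 3.56 CPM in Dsh libraries. The Dsh libraries lay above shNC and the shYY1 libraries below it. The values were 0.65 for Dsh (standard error 0.282, adjusted p = 0.0551, edgeR), -0.37 for shYY1 (adjusted p = 0.451, edgeR) and 0.56 for shKDM5C (adjusted p = 0.508, edgeR). Without replicate 1 the last became 0.88 (adjusted p = 0.0257, edgeR), and without shNC replicate 1 the Dsh value became 0.80 (adjusted p = 0.0447, edgeR).

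BMF (ENSG00000104081; chr15:40087890-40108892, minus strand) encodes a BH3-only protein held on the actin cytoskeleton through dynein light chain, known for death after loss of attachment. It had the widest range of all members. ACHN libraries had 0.874, 0.955 and 1.12 CPM in shNC, 0.264, 0.438 and 0.482 CPM in shKDM5C, 2.09, 2.97 and 2.63 CPM in shYY1 and 3.93, 2.67 and 4.20 CPM in Dsh cells. The shKDM5C libraries lay below and both other knockdowns above shNC, and shYY1 overlapped with Dsh. These levels rest on 5 to 9 read pairs per shKDM5C library and 49 to 104 per Dsh library. The log2 fold changes were -1.31 (standard error 0.386, adjusted p = 0.00536, edgeR) with shKDM5C, 1.36 (standard error 0.260, adjusted p = 4.47e-05, edgeR) with shYY1 and 1.88 (standard error 0.255, adjusted p = 3.50e-06, edgeR) in Dsh cells, a 3.67-fold higher level. Against shYY1, Dsh gave 0.50 (adjusted p = 0.0519, edgeR), which passed without Dsh replicate 2 (0.67, adjusted p = 0.0133), shYY1 replicate 2 or shKDM5C replicate 1, and with RLE factors, a minimum of 10 counts or total counts.

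The HK2 level of BMF was 26.3, 27.1 and 28.5 CPM in shNC, 22.6, 39.2 and 42.4 CPM in shKDM5C, 30.9, 27.8 and 32.0 CPM in shYY1 and 66.9, 69.3 and 59.7 CPM in Dsh libraries. The Dsh libraries stood well above all others, while shYY1 overlapped with shNC. The log2 fold change in Dsh cells was 1.26 (standard error 0.0744, adjusted p = 4.21e-15, edgeR), a 2.40-fold higher level. For shYY1 it was 0.15 (adjusted p = 0.229, edgeR) and for shKDM5C 0.35 (adjusted p = 0.471, edgeR), or 0.58 without replicate 1 (standard error 0.0844, adjusted p = 1.25e-05, edgeR).

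BMF passed as higher in both double knockdowns, so the sequence before its start is shown, with the bases CCAT or ATGG, the core that YY1 recognizes on either strand, in capitals. It is the stretch chr15:40108893-40109129 on the minus strand of GRCh38.p14 from RefSeq, which ends just before the first base of the gene in the count tables.
BMF upstream: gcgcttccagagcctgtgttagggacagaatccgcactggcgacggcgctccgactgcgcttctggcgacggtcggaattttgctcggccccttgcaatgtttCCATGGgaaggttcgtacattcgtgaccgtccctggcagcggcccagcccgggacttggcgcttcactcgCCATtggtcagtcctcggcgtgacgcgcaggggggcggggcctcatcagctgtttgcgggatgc
It holds 3 such matches, those in the first capital run overlapping each other, and 70.3% of promoter stretches of the same length hold at least 1 (median 1). RefSeq promoters, from 250 bases before to 50 after a start, were found for 8 of the 10 members (15 starts). None held the longer YY1 patterns CCATNTT or AAGATGGC on either strand, which 15.6% and 2.89% of 35116 promoters hold. A match is a run of letters and not a measured binding site.

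The design also allows each double knockdown to be set against the sum of its single knockdowns. The interaction is the log2 fold change in Dsh cells minus those with shKDM5C and shYY1, fitted in all 12 libraries of a line. It takes the knockdowns to be equally deep in single and double lines. YY1 was less reduced in Dsh than in shYY1 cells, at 95.9 against 75.4 CPM in ACHN and 74.9 against 64.7 CPM in HK2. Only Dsh cells are described with a second infection, and the labels name no control infected again. The part of either in the interactions was not tested. In ACHN cells 8 of 9 members passed, 5 above and 3 below the sum, beside 55.6% of 17228 genes (26.8% above, 28.8% below). BMF (1.80, standard error 0.431, adjusted p = 0.000937, edgeR), BCL2L11 (1.04, standard error 0.0995, adjusted p = 1.97e-09, edgeR) and BCL2 (0.83, standard error 0.0913, adjusted p = 2.30e-08, edgeR) lay above it, as did MCL1 (0.33) and BCL2L1 (0.18, adjusted p = 0.0114, edgeR). BID (-1.03, standard error 0.0997, adjusted p = 2.68e-09, edgeR), BAD (-0.78, standard error 0.148, adjusted p = 8.01e-05, edgeR) and BAK1 (-0.45, standard error 0.0976, adjusted p = 0.000353, edgeR) lay below. BIK (-0.02, standard error 0.422) did not pass. All 8 calls held with each of the 12 libraries left out in turn. Scaling to total counts moves the median interaction of all genes from 0.0120 to 0.108, and BIK alone among the members then changed sign.

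In HK2 cells 1 member passed, beside 9.61% of 17093 genes (5.21% above, 4.40% below). BCL2 lay below the sum by -1.55 (standard error 0.152, adjusted p = 9.41e-05, edgeR), and by -1.45 without shKDM5C replicate 1 (standard error 0.115, adjusted p = 9.07e-11, edgeR). Without that library 5 members passed, beside 28.7% of 17642 genes: BCL2, BMF (0.55, adjusted p = 0.000633), BAK1 (0.38, adjusted p = 0.00273), BCL2L11 (-0.37, adjusted p = 0.0312) and MCL1 (0.17, adjusted p = 0.0498, edgeR). With it, BMF had 0.76 (adjusted p = 0.0861, edgeR), BAK1 0.54 (adjusted p = 0.110, edgeR), BCL2L11 -0.35 (adjusted p = 0.162, edgeR) and MCL1 0.13 (adjusted p = 0.485, edgeR).

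**Figure D3:**
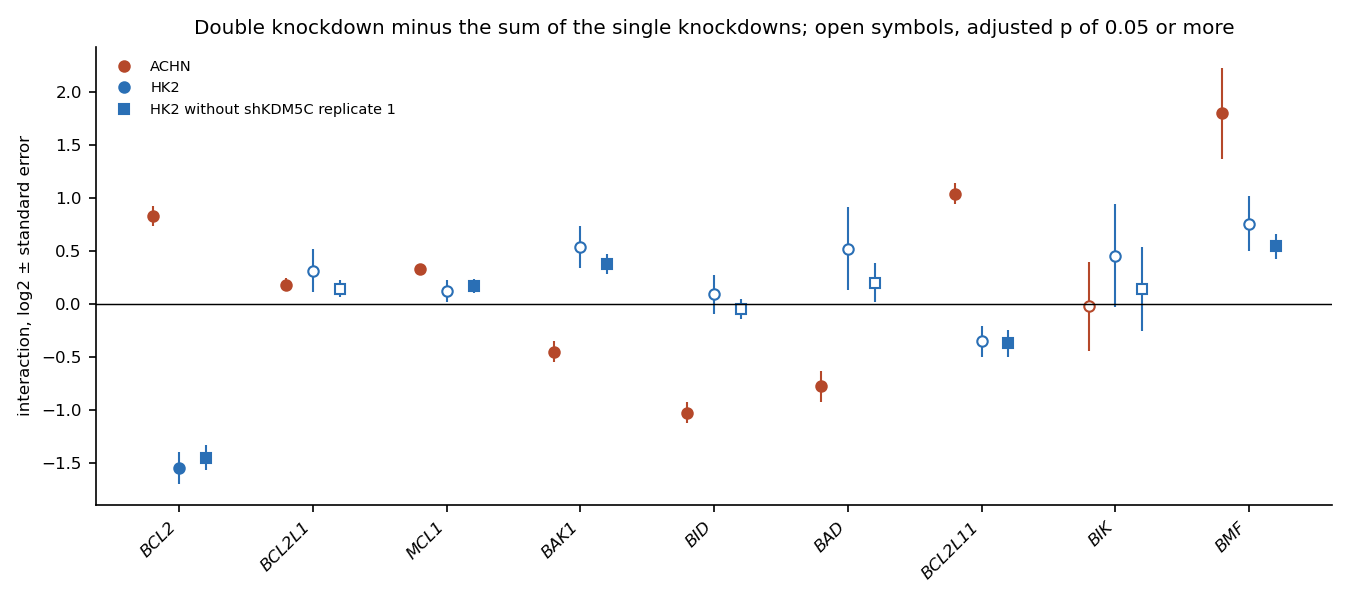
Interaction of the knockdowns (vertical axis, log2 of Dsh minus the sum of the single knockdowns, bars are standard errors) for 9 members in ACHN (red circles), HK2 (blue circles) and HK2 without shKDM5C replicate 1 (blue squares); open symbols have an adjusted p of 0.05 or more. BCL2 lies at 0.83 in ACHN and at -1.55 in HK2, and BID and BAD lie at -1.03 and -0.78 in ACHN.

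The double knockdown was also compared with each single knockdown directly, where the unequal YY1 levels and the second infection of Dsh cells are limits too. These comparisons were fitted in all 12 libraries of a line with 1 shared estimate of the spread. HK2 shKDM5C replicate 1 therefore also enters the comparison of HK2 Dsh with shYY1. In ACHN, Dsh differed from shKDM5C in 8 of 9 members (63.0% of 17228 genes passed) and from shYY1 in 6 (65.0%). Besides the values given above with each gene, BMF was higher in ACHN Dsh than in shKDM5C by 3.18 (standard error 0.302, adjusted p = 1.18e-09, edgeR), on 5 to 9 read pairs per shKDM5C library. MCL1 and BCL2L1 were higher in ACHN Dsh than in shKDM5C by 0.22 and 0.20, and than in shYY1 by 0.67 and 0.43. In HK2, Dsh differed from shKDM5C in 3 members (27.2% of 17093 genes) and from shYY1 in 3 (22.0%), which were 5 and 8 without shKDM5C replicate 1 (39.8% and 44.9% of 17642 genes). BCL2 was lower in HK2 Dsh than in either single knockdown, at -1.74 against shKDM5C (-1.64 without replicate 1) and -1.25 against shYY1 (-1.23 without it). BMF was higher in HK2 Dsh than in either, at 0.91 (0.69 without replicate 1) and 1.11 (1.13 without it). The other call against shKDM5C was BCL2L1 at 0.46 (adjusted p = 0.0311, edgeR; 0.29 without replicate 1). It was lost when any HK2 Dsh replicate was left out and with total counts. Against shYY1 the other call was MCL1 at 0.23 (adjusted p = 0.0418, edgeR; 0.24 without replicate 1). It was lost in 9 of 12 fits with 1 library left out.

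Finally for the members, the effect of each knockdown was compared between the lines in a fit of all 24 libraries, as the ACHN effect minus the HK2 effect. For Dsh, 5 members differed, beside 30.2% of 19082 genes, and 8 did without HK2 shKDM5C replicate 1 (43.7% of 19718). For shKDM5C, 6 differed (20.9%; 8 without that library, 28.7%), and for shYY1, 5 did (14.4%; 5 without it, 28.9%). The difference of the interactions, a test added after the data were seen, passed for 5 members (22.3%), and for 6 without HK2 shKDM5C replicate 1 (33.3%). BCL2 differed in all 4 tests. Its Dsh effect was higher in ACHN by 0.76 (standard error 0.121, adjusted p = 4.14e-05, edgeR). Its single-knockdown effects were lower in ACHN, by -0.77 for shKDM5C (adjusted p = 6.49e-05, edgeR) and -0.83 for shYY1 (adjusted p = 2.92e-05, edgeR). The interactions differed by 2.35 (standard error 0.170, adjusted p = 7.21e-10, edgeR). Without HK2 shKDM5C replicate 1 these 4 values were 0.77, -0.69, -0.82 and 2.29. The loss of the targeted transcripts also differed. Without HK2 shKDM5C replicate 1, the Dsh effect on KDM5C was higher (a smaller loss) in ACHN by 0.71 (adjusted p = 4.08e-11, edgeR) and that on YY1 by 1.00 (adjusted p = 2.24e-14, edgeR), and the part of these gaps in the differences of the members was not tested.

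The remaining 11 genes of the BCL2 family were examined as another list. In ACHN Dsh cells 7 of them could be tested and 2 were higher, 0 lower, beside 30.7% and 32.0% of all genes. In HK2 Dsh cells 9 could be tested, of which 6 were higher and 2 lower, beside 25.5% and 24.3%. The singly knocked down ACHN cells had 5 higher and 1 lower with shKDM5C, and 4 higher and 1 lower with shYY1, of 7 tested, where 56.6% and 48.7% of all genes passed in either direction. HK2 cells had 3 higher and 1 lower with shYY1, of 9 tested, beside 14.3% and 14.7%. For shKDM5C the count in HK2 was 0 of 9 by edgeR and by DESeq2, with 1 gene at an unadjusted p under 0.05 in edgeR, and without replicate 1 it was 2, beside 22.3% of all genes (BCL2L13 higher, BOK lower, named after their values were seen).

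The gene of this list that rose furthest was a BH3-only gene in each double knockdown, BBC3 in ACHN and PMAIP1 in HK2. BBC3, which encodes PUMA, went from 12.2 ± 1.03 CPM in ACHN shNC to 57.9 ± 9.12 CPM in ACHN Dsh cells (SD, n = 3), which is 2.25 on the log2 scale (standard error 0.104, adjusted p = 1.22e-12, edgeR), and had 1.03 with shYY1. PMAIP1, which encodes NOXA, a selective partner of MCL1, went from 32.8 ± 1.15 to 104.4 ± 2.15 CPM in HK2 Dsh cells (SD, n = 3), which is 1.68 on the log2 scale (standard error 0.0615, adjusted p = 3.96e-20, edgeR), and had 0.44 with shYY1. In ACHN Dsh cells PMAIP1 had 0.12 (adjusted p = 0.288, edgeR), whereas BBC3 passed in HK2 Dsh cells too, at 0.92 (standard error 0.131, adjusted p = 6.97e-07, edgeR). The Dsh effect differed between the lines for both, by 1.33 for BBC3 (ACHN minus HK2, adjusted p = 0.00479, edgeR) and by -1.54 for PMAIP1 (adjusted p = 2.94e-06, edgeR), or 1.35 and -1.53 without HK2 shKDM5C replicate 1.

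Other genes of the list were named by the size of their change. BAX, the other main effector, rose in ACHN cells with shKDM5C (0.44) and shYY1 (0.48) and had 0.03 in ACHN Dsh cells (adjusted p = 0.718, edgeR). BCL2L12 rose with shKDM5C in ACHN (0.56), and BCL2L13, a mitophagy receptor, rose in ACHN Dsh cells (0.40). BCL2L15 was lower in HK2 Dsh (-1.59, standard error 0.439, adjusted p = 0.00317, edgeR) and shYY1 cells (-1.20), on 4 to 18 read pairs per Dsh library.

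**Figure D4:**
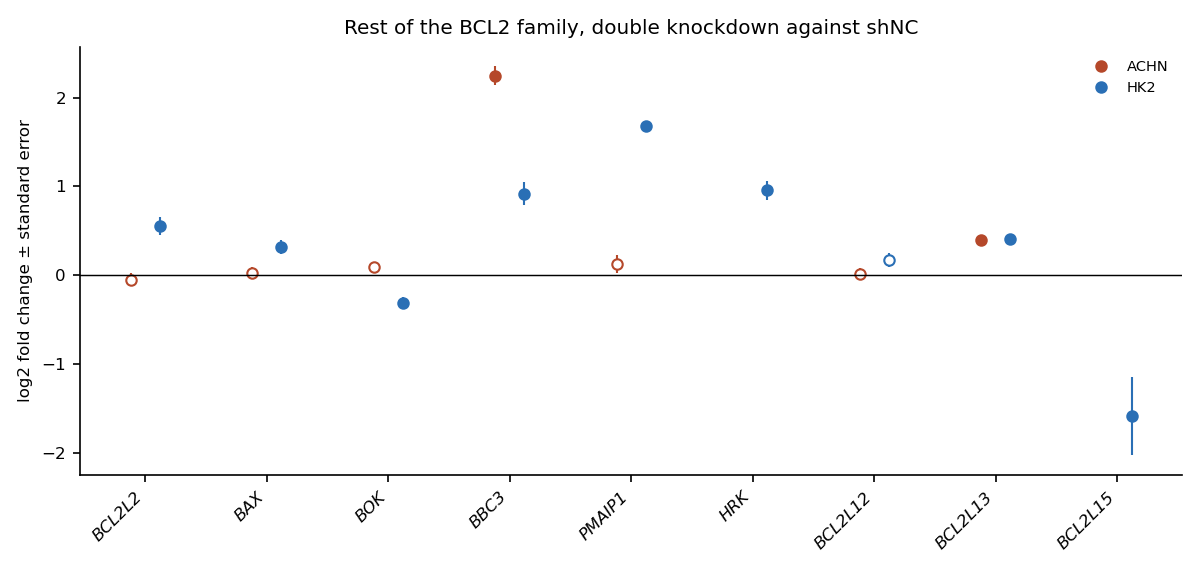
Log2 fold change in Dsh against shNC (vertical axis, bars are standard errors) of the other family genes that could be tested, in ACHN (red) and HK2 (blue); open circles have an adjusted p of 0.05 or more. BBC3 is the highest point of ACHN at 2.25 and PMAIP1 that of HK2 at 1.68.

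A further list held 12 regulators and partners of these proteins, all tested. In ACHN Dsh cells 5 were higher and 5 lower, and in HK2 Dsh cells 4 were higher and 5 lower, where 62.6% and 49.8% of all genes passed in either direction. FBXW7, a ubiquitin ligase subunit that targets MCL1, rose in both double knockdowns, at 0.78 (standard error 0.0729, adjusted p = 2.38e-08, edgeR) in ACHN and 0.73 (standard error 0.0796, adjusted p = 4.74e-09, edgeR) in HK2. Single knockdowns in ACHN gave 8 higher and 3 lower with shKDM5C (56.6% of all genes passed), led by CASP8 (0.52), which cleaves BID, and FOXO3 (-0.32), a factor known to activate BCL2L11. With shYY1 they gave 3 higher and 5 lower (48.7%), led by FOXO3 (-0.49) and YWHAZ (0.41), a 14-3-3 protein. HK2 shYY1 cells had 3 higher and 2 lower (29.1%), led by HUWE1 (-0.32) and MARCHF5 (0.27), ubiquitin ligases that act on MCL1, and HK2 shKDM5C cells had 0 calls by edgeR and by DESeq2 (1 gene at an unadjusted p under 0.05 in edgeR, and 1 call, YWHAZ, without replicate 1).

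For the 3 members of widest range of mean log2(CPM + 0.5) over the groups, the genes with the most similar pattern were sought among 14248 genes, as a description over the 8 group means after centring each line. BMF was most like CCDC50 (Pearson r = 0.986) and WWP1 (r = 0.983), BCL2 was most like PHLDB2 (r = 0.986) and ZNF17 (r = 0.980), and BAD was most like OSER1 (r = 0.982) and HAGH (r = 0.979). Each r is the highest or next highest among 14248 genes on only 8 centred points, so a high value is no sign of shared regulation. The points share their libraries within a group, and the range of BAD includes the library that stood apart. As a ratio of the highest to the lowest group mean without the added 0.5, BIK ranged more widely than BAD in both lines, at 2.03 against 1.68 in HK2.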

How the data were processed

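Paired-end RNA-seq libraries of ACHN and HK2 cells were analysed from the deposited counts, 1 table per library, 24 in all, and none was left out. Per the labels and file headers, the authors aligned reads to GRCh38 with HISAT2 (version 2.0.5) and counted read pairs on the genes of Ensembl release 84 with featureCounts (1.5.0-p3 in the processing notes, 2.0.1 in the headers) without strand and without pairs that overlap more than 1 gene. The counts are raw, whole numbers. Symbols were given to 56558 of 60675 genes.

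From these, CPM were computed with edgeR's TMM factors within a line (over all libraries for CPM per kb). Tests used edgeR 4.0.16 in R 4.3.3: filterByExpr, the quasi-likelihood F test and Benjamini-Hochberg adjustment over all genes tested, with an adjusted p under 0.05 as the call. Comparisons with shNC and between the control cells used the 6 libraries of the pair. Interactions and comparisons of Dsh with a single knockdown used the 12 libraries of a line, and differences between lines all 24. Standard errors were derived from the F statistic. An exact permutation test of 3 against 3 cannot go below 0.1 and was not used. Alternatives were DESeq2 1.42.0, RLE factors, total counts, no filter, a minimum of 10 counts, fits of all 4 groups or of only the 12 libraries compared, a block for the replicate number, and each library left out.

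Members and lists were chosen with earlier results of these data known. All members are named in the comparisons with shNC and between the control cells. In the other comparisons, members called with all libraries are named, and some of the rest are only counted. Of the other lists, KDM5C and YY1 are always named and otherwise at most the 2 called genes of largest change per list and comparison with shNC, apart from values given beside such a gene. The values of 1 gene that this rule names are not reported here. The steps were tested on simulated counts. Promoter sequences are from RefSeq (GRCh38.p14), in which YY1 patterns were searched on both strands.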

Additional observations from a re-analysis of the deposited data

Results flagged for a closer look

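The effects below differed between the lines by a test of the difference itself (edgeR's quasi-likelihood test over 24 libraries, adjusted p under 0.05). Values are log2, ACHN minus HK2, with no explanation weighed.

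For the double knockdown, the difference was 0.76 for BCL2 (ACHN -0.68, HK2 -1.43), 0.56 for BCL2L1 (0.45 and -0.11), 0.47 for MCL1 (0.56 and 0.10), 0.43 for BCL2L11 (0.27 and -0.15) and -1.24 for BIK (-0.60 and 0.65, neither of which passed in its own line). The BIK difference was lost without any of 6 libraries left out in turn (ACHN Dsh replicate 1, ACHN shNC replicate 2 or 3, HK2 Dsh replicate 3, HK2 shNC replicate 2 or 3; adjusted p up to 0.0953), and with no filter or total counts (up to 0.0700). That of BCL2L11 was lost with no filter (0.142). Without HK2 shKDM5C replicate 1 the 5 values were 0.77, 0.58, 0.49, 0.44 and -1.23, all of which passed.

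For shKDM5C, with HK2 shKDM5C replicate 1 included, the difference was -0.77 for BCL2, 0.84 for BCL2L1, 0.26 for MCL1, 0.77 for BAK1, -0.55 for BCL2L11 and -1.64 for BMF. Without that library these were -0.69, 0.66, 0.28, 0.60, -0.59 and -1.87, and all 6 still passed. The MCL1 difference was lost without ACHN shNC replicate 2 or HK2 shNC replicate 1 (adjusted p up to 0.0530) and with no filter or only the 12 libraries compared (up to 0.163).

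For shYY1, the difference was -0.83 for BCL2, 0.51 for BAK1, 0.65 for BID, -0.39 for BCL2L11 and 1.23 for BMF. Leaving out 1 library at a time ended the BAK1 call in 12 of 24 cases, the BCL2L11 call in 8 and the BMF call in 2 (ACHN shNC replicate 1 and ACHN shYY1 replicate 2), whereas those of BCL2 and BID held in all 24. With no filter or total counts the BAK1 and BCL2L11 calls were lost too (adjusted p up to 0.0793 and 0.267). Without HK2 shKDM5C replicate 1 the values were -0.82, 0.51, 0.66, -0.39 and 1.24, all of which passed.

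The interaction of the knockdowns differed by 2.35 for BCL2, -1.01 for BAK1, -1.14 for BID, -1.31 for BAD and 1.37 for BCL2L11. Without HK2 shKDM5C replicate 1 these were 2.29, -0.82, -0.97, -0.97 and 1.42, all of which passed. The BAD difference was lost in 10 of 24 fits with 1 library left out (adjusted p up to 0.0632) and with total counts (0.0603).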

How the results depend on the processing

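Counts of members called in ACHN kept within 1.5 times under every alternative run. So did those between the control cells and those for the differences between lines of the shKDM5C effect and of the interaction. The other counts that involve HK2 did not. With all 4 groups in the fit (edgeR), HK2 Dsh had 2 calls in place of 4, HK2 shYY1 0 in place of 3 (0 also at an unadjusted p under 0.05) and HK2 shKDM5C 1 in place of 0. DESeq2 was fitted to the 6 libraries of the pair only, where it called 3 in HK2 shYY1. DESeq2 gave 5 calls for HK2 Dsh against shKDM5C and 2 for the HK2 interaction, which also had 2 with no filter on low counts. With no filter the Dsh and shYY1 effects differed between lines in 3 members each, and in 8 for Dsh with only the 12 libraries compared. Total counts gave 3 for shYY1. The cause was not tested. No share of all genes is set beside the counts of this section, so they describe how stable the calls were and not the members. That share can move too, as in HK2 shKDM5C from 1.32% to 22.3% without replicate 1. Leaving out 1 library gave 2 to 4 calls for HK2 Dsh (2 without HK2 Dsh replicate 1 or HK2 shNC replicate 2), 2 to 5 for HK2 Dsh against shKDM5C, 2 to 8 for HK2 Dsh against shYY1, 1 to 5 for the HK2 interaction, 0 to 5 for HK2 shKDM5C, 1 to 2 for HK2 shYY1, 4 to 8 for the difference of the Dsh effect and 2 to 5 for that of shYY1. The highest count was without HK2 shKDM5C replicate 1 for the HK2 comparisons of Dsh with a single knockdown, the HK2 interaction, HK2 shKDM5C and the Dsh difference. The single call for HK2 shYY1 was without any HK2 shNC replicate or shYY1 replicate 2, and the 2 for the shYY1 difference without ACHN shNC replicate 1.

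None of the values that changed sign had passed. Those of BIK, counted at 13 to 68 read pairs per library, reached -0.23 in HK2 Dsh against shKDM5C and 0.17 in the ACHN interaction, and the other genes lay nearer 0. BCL2L1 in ACHN shYY1 became 0.000557 with DESeq2 and 0.000557 with RLE factors, 0.0154 with all 4 groups, 0.0026 with a minimum of 10 counts and 0.0047 with no filter. Total counts turned BAK1 in ACHN Dsh against shYY1 to 0.0141, the ACHN interaction of BIK to 0.0753 (0.0019 with a minimum of 10 counts), MCL1 in HK2 Dsh against shKDM5C to 0.0456 (0.0180 with no filter) and BID in HK2 shKDM5C to -0.0042. Over libraries left out, the ranges were -0.0567 to 0.0011 for that BAK1 value, -0.19 to 0.17 for the BIK interaction, -0.0212 to 0.0251 for BCL2L1 in ACHN shYY1, -0.0456 to 0.0247 for BAK1 in HK2 Dsh, -0.0329 to 0.0278 for MCL1, -0.0569 to 0.20 for BID and -0.23 to 0.36 for BIK in HK2 Dsh against shKDM5C, -0.0498 to 0.20 for the HK2 interaction of BID, -0.0347 to 0.22 for BID in HK2 shKDM5C and -0.0412 to 0.0160 for it in HK2 shYY1. Between lines they were -0.28 to 0.0483 for BCL2L1 (interaction), -0.0348 to 0.24 for BIK and -0.0055 to 0.0506 for MCL1 (both shYY1).

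Same-numbered replicates showed little shared deviation: correlations of their deviations from group means ran from -0.0973 to 0.0884 in ACHN and -0.297 to 0.107 in HK2. Of 18 comparisons in each line, 7 and 6 were highest for the own number. With 3 replicates, and the HK2 library that stood apart among them, this cannot decide whether the numbers pair samples. With the replicate number as a block, 6 members passed in ACHN Dsh, 8 in the ACHN interaction and 5 in HK2 Dsh, where MCL1 was added (adjusted p = 0.0342, edgeR). In HK2 Dsh against shYY1 2 passed in place of 3, without MCL1, and KDM5C in HK2 shKDM5C lost its call.

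Low counts limit BMF in ACHN, BIK and BCL2A1, and the spread of HK2 shKDM5C limits every HK2 fit that holds it.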
